A study of Homo sapiens with 12 samples.

Results

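The early response of T84 cells to acid was read from 6 of the 12 libraries of the series, the 3 libraries of cells held in saline of pH 6.0 for 3 h against the 3 of cells held in saline of pH 7.4 for 3 h, and from all genes that passed a filter on low counts, which were 15630 of the 48162 in the deposited tables. T84 is an established human colon carcinoma line that forms a polarised, chloride-secreting epithelial sheet. Every group was treated alike up to the saline: confluent cells in multiwell plates lost their growth medium and received Hanks buffered saline, which in its usual form holds glucose and salts but no serum, amino acids or growth factors. The other 6 libraries of the series come from the same 2 saline conditions at 6 h and are used here only to set the changes of 3 h beside those of the later time. No library of cells in medium or before the exchange was analysed here, so each value compares acid with neutral saline and not saline with medium. Nothing in the labels ties the libraries to separate cultures, so p-values rest on a spread among libraries that may be technical.

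Epithelial cells of the colon face acid from fermentation, from ischaemia and from inflamed tissue. A fall in the pH outside the cell is sensed by proton-activated receptors and channels at the surface, and part of it passes into the cytosol, where it is countered by sodium-proton exchangers, bicarbonate carriers, carbonic anhydrases and proton-linked lactate carriers. A stimulus of this kind is often followed within an hour or so by transcription of immediate early genes, among them the FOS, EGR and NR4A families, whose mRNAs are made without new protein synthesis and are short-lived. Their products include transcription factors, phosphatases that switch off MAP kinases and RNA-binding proteins that destroy unstable mRNAs.

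At 3 h the libraries held between 16865263 and 24331032 counts at pH 7.4 and between 13912532 and 18205946 at pH 6.0. Mitochondrially encoded genes took 7.46% to 10.6% of them. The first principal component of the 6 libraries held 48.7% of the variance and separated the pH groups. The cells carried the markers of intestinal epithelium, since the 12 markers listed for it were all detected, with a summed level of 8188 to 9069 CPM (counts as a share of the library's scaled total) at pH 7.4 and 9488 to 9878 CPM at pH 6.0. The 8 fibroblast markers summed to 1.65 to 2.83 and 1.82 to 2.02 CPM, the 8 leukocyte markers to 8.69 to 10.4 and 9.11 to 12.5 CPM, and the 6 endothelial markers to 13.5 to 13.7 and 11 to 13 CPM, in the same order. Of the 2, 4 and 2 of these markers read well enough to be tested, none was called by edgeR or by DESeq2, and 1 fibroblast marker had an unadjusted p under 0.05. Of the 12 epithelial markers 4 were higher (CDX2, HNF4A, ELF3 and CLDN4) and none lower, against 6 higher and none lower with DESeq2. CPM is a share of the reads of a library, so fewer cells of a kind and less RNA per cell cannot be told apart, and a change in total RNA would not be seen.

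In acid saline 1489 genes (9.53% of those tested) were higher and 1448 (9.26%) were lower than in neutral saline, together 18.8% of the genes tested, by edgeR's quasi-likelihood test with a Benjamini-Hochberg adjusted p under 0.05. Such genes are called changed, higher or lower below. Most changes were small: the median log2 fold change was 0.47 over the higher and -0.45 over the lower genes. A change of at least 2-fold was found for 356 higher genes (2.28%) and 92 lower genes (0.589%). Many of the larger increases belonged to rarely read genes, since 47 of the 356 reached a mean of 100 counts per library, against 30 of the 92 lower genes. For 33.0% of all genes no library of one pH group overlapped the other group in CPM, and for 2703 of the 2937 called genes. The count of calls depended on single libraries. It was 1661 without library 1 at pH 7.4, 1649 without library 2 at pH 6.0 and 1648 without library 3 at pH 6.0, and 1198 genes were called whichever of the 6 libraries was left out. With scaling by total counts alone the split was 1194 higher and 1752 lower.

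**Figure D1:**
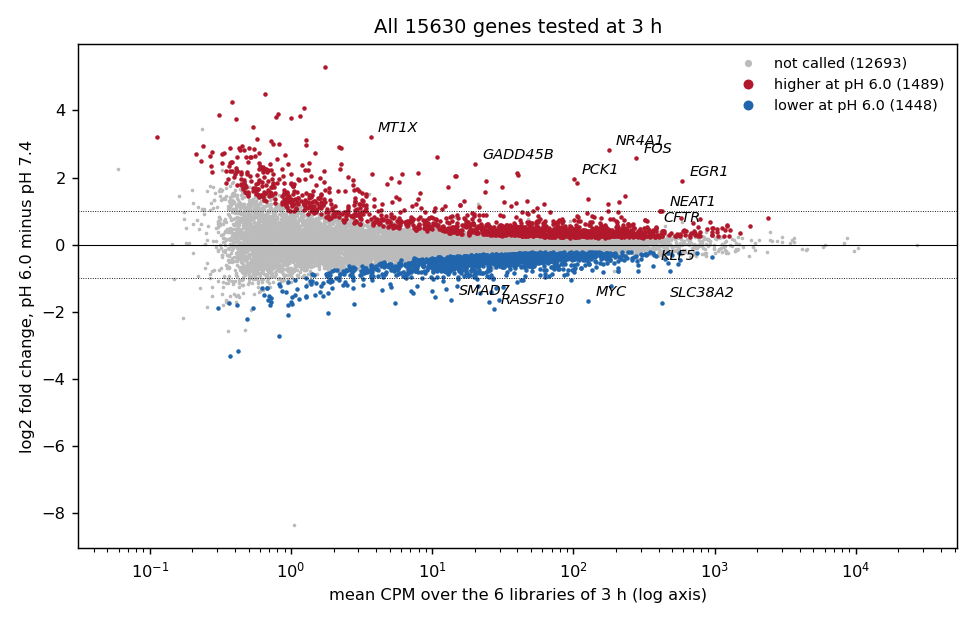
Log2 fold change (pH 6.0 minus pH 7.4 at 3 h) against mean CPM over the 6 libraries for the 15630 genes tested, with 1489 genes called higher in red, 1448 called lower in blue and the rest in grey; dotted lines mark 2-fold changes. Most of the points past 2-fold on the upper side lie at low CPM, and the named immediate early genes stand out among well-read genes.

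The largest increases among well-read genes included those of several immediate early genes. The nuclear receptor gene NR4A1 (ENSG00000123358), a product of growth factor and cAMP signals, stood at 42.7, 46.6 and 42.3 CPM at pH 7.4 and 297.6, 338.1 and 294.8 CPM at pH 6.0. FOS (ENSG00000170345), the AP-1 subunit, stood at 83.5, 79.3 and 75.9 CPM at pH 7.4 and 462.7, 514.7 and 450.7 CPM at pH 6.0. EGR1 (ENSG00000120738), a zinc finger factor of the early growth response family, stood at 249.9, 255.6 and 244.2 CPM at pH 7.4 and 870.6, 1006 and 908.3 CPM at pH 6.0. In each of the 3 the highest library at pH 7.4 lay far under the lowest at pH 6.0, and the libraries within a group were close together. Genes of largest change were named only if their groups did not overlap, which held for 2703 of the 2937 called genes. That groups were apart, here and below, is thus a description and no further support for a call. The log2 fold changes (pH 6.0 minus pH 7.4, ± SE, n = 3 libraries per group throughout) were 2.82 ± 0.10 for NR4A1, 2.58 ± 0.09 for FOS and 1.89 ± 0.09 for EGR1 (adjusted p = 5.17e-13 for the last).

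**Figure D2:**
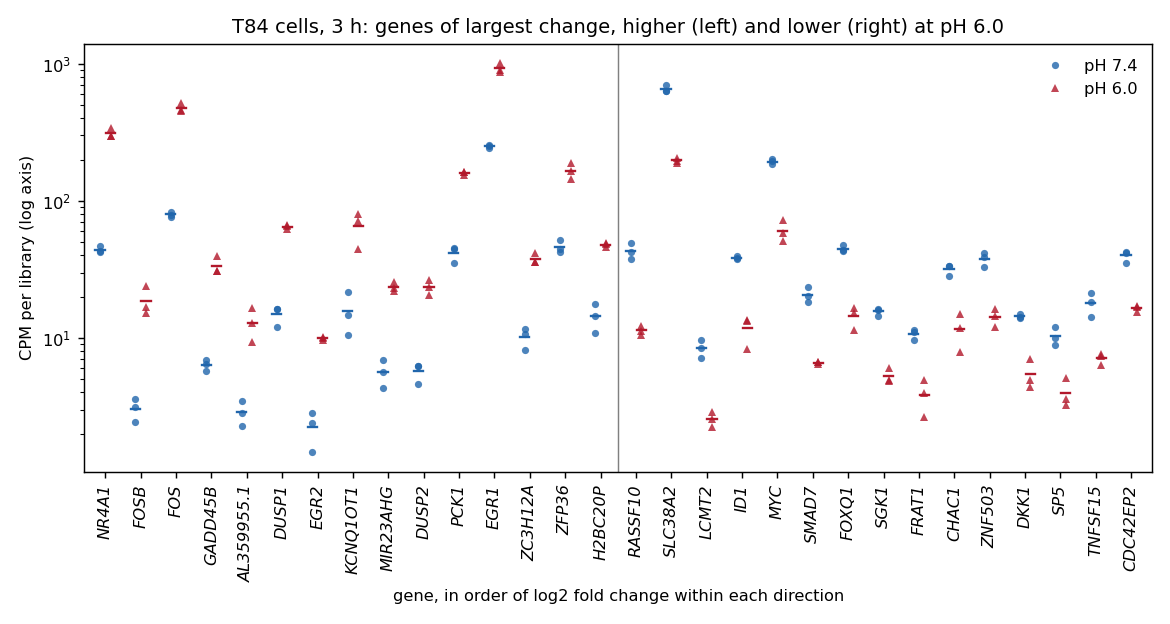
CPM on a log axis in each of the 6 libraries of 3 h (points; bars are group means) for the 15 genes with the largest rise and the 15 with the largest fall among called genes that averaged 100 counts or more and whose groups did not overlap. NR4A1 goes from 42.3 to 46.6 CPM at pH 7.4 up to 294.8 to 338.1 CPM at pH 6.0, and SLC38A2 from 629.9 to 696.4 CPM down to 189.6 to 205.8 CPM.

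Among 13 tested AP-1 genes 6 were higher and 4 lower. Members of the FOS and JUN families were among those that rose. FOSB stood at 3.11, 2.44 and 3.58 CPM at pH 7.4 and 15.2, 23.8 and 16.8 CPM at pH 6.0 (2.61 ± 0.18), and JUNB at 134.6, 115.4 and 116.7 CPM at pH 7.4 and 327.2, 269.4 and 295.4 CPM at pH 6.0 (1.28 ± 0.10). JUN (0.61 ± 0.12), FOSL1 (0.62 ± 0.13) and ATF3 (1.01 ± 0.09) rose less. FOSL2 was at 0.20 ± 0.09 (adjusted p = 0.109) and JUND, a subunit present in resting cells, at -0.17 ± 0.09 (adjusted p = 0.161), neither of them called. Those that fell were JDP2 (-0.74 ± 0.10), a partner that represses AP-1, BATF2 (-0.42 ± 0.10) and the small MAF proteins MAFG (-0.55 ± 0.08) and MAFK (-0.36 ± 0.09), of which MAFK was not called without library 2 at pH 6.0 (adjusted p = 0.053). Another small MAF gene, MAFF, was at -0.06 ± 0.08 (adjusted p = 0.668). The median over the 13 was 0.20, against -0.003 over all genes tested.

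All 4 EGR genes were called higher. EGR2, which acts in differentiation, stood at 2.83, 2.39 and 1.47 CPM at pH 7.4 and 9.71, 10.2 and 10.02 CPM at pH 6.0 (2.12 ± 0.18), and EGR3 at 2.09, 2.14 and 1.82 CPM at pH 7.4 and 8.4, 9.47 and 6.51 CPM at pH 6.0 (2.00 ± 0.18). EGR4 was close to undetected at pH 7.4, with 0.236, 0.0499 and 0.0587 CPM at pH 7.4 and 1.09, 0.21 and 0.438 CPM at pH 6.0, its groups overlapped, and its call was lost without library 2 or 3 at pH 7.4 or library 1 or 3 at pH 6.0 (adjusted p = 0.0621 to 0.266). NAB2, which binds EGR proteins and represses them, fell, and stood at 67.9, 53 and 50.7 CPM at pH 7.4 and 29.95, 26.1 and 26.7 CPM at pH 6.0 (-1.05 ± 0.12), while its relative NAB1 was at 0.08 ± 0.09 (adjusted p = 0.578). Of the other immediate early response genes IER2 rose (0.70 ± 0.09), IER3, an NF-kB and stress-induced survival gene, rose by 0.78 ± 0.19 but was not called without library 2 or 3 at pH 7.4 (adjusted p = 0.0604 to 0.0736), and IER5 was at -0.07 ± 0.10 (adjusted p = 0.657). SRF, the factor that binds serum response elements, was at 0.22 ± 0.08 (adjusted p = 0.056). In all 6 of the 11 genes of this list were higher and 1 was lower, with a median of 0.70.

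Genes tied to cAMP and the factor CREB went up in part. PCK1 (ENSG00000124253), the rate-limiting enzyme of gluconeogenesis and a gene with cAMP-responsive transcription in liver and kidney, stood at 35.5, 44.3 and 45.3 CPM at pH 7.4 and 155.0, 163.2 and 162.9 CPM at pH 6.0 (1.95 ± 0.11, adjusted p = 3.26e-10). SIK1, a kinase that restrains CREB coactivators, stood at 20.9, 22.9 and 22.5 CPM at pH 7.4 and 50.03, 53.6 and 44.9 CPM at pH 6.0 (1.17 ± 0.10). The clock gene PER1 stood at 25, 25.1 and 31.2 CPM at pH 7.4 and 64.7, 67.2 and 66.3 CPM at pH 6.0 (1.29 ± 0.09). Their pH groups lay well apart. The phosphodiesterase gene PDE4D rose by 0.64 ± 0.16 and was not called without library 2 at pH 6.0 (adjusted p = 0.0604). NR4A2 rose by 0.51 ± 0.17 and was not called without library 3 at pH 7.4 or library 1, 2 or 3 at pH 6.0 (adjusted p = 0.0842 to 0.198), and NR4A3 was at 1.14 ± 0.44 (adjusted p = 0.0749). Of the factors themselves few were called. CREB1 was at -0.07 ± 0.09, CREM at -0.09 ± 0.12, ATF1 at -0.04 ± 0.12 and SIK3 at -0.10 ± 0.09, none of them called. SIK2 was at 0.02 ± 0.09 (-0.18 and called lower with a length term in each library), and the coactivator CRTC2 fell (-0.41 ± 0.09) with CRTC1 at -0.23 ± 0.13 and CRTC3 at -0.00 ± 0.09, not called. Of the 18 genes tested, 6 were higher and 1 lower (2 without library 1 at pH 7.4), with a median of 0.14.

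The promoters of 3 of the genes that rose are printed because they carry letters known as response elements of these pathways. Each is the 250 bases before the start of the gene from RefSeq (GRCh38.p14), read 5′ to 3′ on the strand of the gene, with capitals for matches. The letters searched, on both strands, were TGACGTCA (the full cAMP response element), TGACG (its first 5 bases, contained in the full one), TGATGNAA (an amino acid response element) and the CArG box of serum response factor. FOS lies at chr14:75278578-75278827 on the plus strand, EGR1 at chr5:138465229-138465478 on the plus strand and DUSP1 at chr5:172771196-172771445 on the minus strand.
FOS: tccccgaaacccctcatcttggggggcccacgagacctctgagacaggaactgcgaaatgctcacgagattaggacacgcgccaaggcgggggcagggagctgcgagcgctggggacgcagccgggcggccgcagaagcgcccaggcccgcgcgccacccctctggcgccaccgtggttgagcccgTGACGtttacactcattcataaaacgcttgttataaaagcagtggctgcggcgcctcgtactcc
EGR1: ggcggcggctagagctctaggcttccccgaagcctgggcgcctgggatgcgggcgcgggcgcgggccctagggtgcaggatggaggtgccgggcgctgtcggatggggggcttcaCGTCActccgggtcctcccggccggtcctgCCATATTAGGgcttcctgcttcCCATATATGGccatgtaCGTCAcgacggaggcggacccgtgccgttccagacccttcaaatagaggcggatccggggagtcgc
DUSP1: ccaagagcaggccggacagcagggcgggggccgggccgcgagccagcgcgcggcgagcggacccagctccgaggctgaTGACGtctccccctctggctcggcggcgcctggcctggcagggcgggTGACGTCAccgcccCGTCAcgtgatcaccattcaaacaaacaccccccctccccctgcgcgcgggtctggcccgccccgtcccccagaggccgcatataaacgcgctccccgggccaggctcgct
In FOS the capitals mark TGACG, 64 bases before the start. In EGR1 they mark 2 CArG boxes, starting 105 and 83 bases before the start, and TGACG on the opposite strand at 135 and 66 bases. In DUSP1 the full element TGACGTCA starts 125 bases before the start, with further TGACG matches at 172 bases and, on the opposite strand, at 111 bases. The window used for NR4A1 held none of the 4, and PCK1 was not matched in the promoter table. Only 1 window per gene was searched, so the absence of a match says nothing of promoters at other starts of the gene.

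Over the genes that changed, these letters occurred at shares near those over all genes tested, with no test of the difference. A promoter was found for 10908 of the tested genes. TGACGTCA was in 2.85% of the promoters of higher genes, 3.42% of those of lower genes and 2.87% of all tested, and in 1.77% of all 27305 promoters in the table. TGACG was in 27.1%, 30.6%, 29.4% and 21.7% in the same order, and the CArG box in 0.815%, 0.702%, 1.04% and 1.14%. Matches are a description of these windows.

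Genes that feed back on the same signals were split. The genes of the nuclear MAP kinase phosphatases DUSP1, DUSP2 and DUSP5 rose. DUSP1 stood at 16.3, 11.9 and 16.3 CPM at pH 7.4 and 65.8, 66.9 and 61.8 CPM at pH 6.0 (2.12 ± 0.11), DUSP2 at 6.22, 4.59 and 6.28 CPM at pH 7.4 and 26.6, 20.6 and 23.3 CPM at pH 6.0 (2.05 ± 0.14) and DUSP5, which dephosphorylates ERK, at 12.2, 10.1 and 13.5 CPM at pH 7.4 and 35.8, 35.6 and 35.5 CPM at pH 6.0 (1.58 ± 0.11). No library at pH 6.0 overlapped one at pH 7.4 for these phosphatases. The inhibitors of receptor tyrosine kinase signalling SPRY1 (-0.85 ± 0.12) and SPRY2 (-0.68 ± 0.09) fell, as did the ERK-responsive factor ETV5 (-0.65 ± 0.12), so that with DUSP6 (-0.35 ± 0.10) and SPRED2 (-0.26 ± 0.08) 3 of 18 genes were higher and 5 lower. DUSP6 was not called without library 1 at pH 7.4 or library 2 or 3 at pH 6.0 (adjusted p = 0.0852 to 0.135), and SPRED2 not without library 2 at pH 7.4 or library 1 or 3 at pH 6.0 (adjusted p = 0.0901 to 0.116). The count of lower genes was 3 without library 3 at pH 6.0. Among ligands of the EGF receptor TGFA rose (0.52 ± 0.09), while HBEGF (-0.45 ± 0.11) and AREG (-0.57 ± 0.17) fell; HBEGF was not called without library 2 at pH 6.0 (adjusted p = 0.0602), and AREG not without library 1 or 2 at pH 7.4 or library 2 or 3 at pH 6.0 (adjusted p = 0.0512 to 0.172).

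Inhibitors of inflammatory signalling moved in both directions. Of 17 genes of the NF-kB feedback list 5 were higher and 3 lower, with a median of 0.12. TNFAIP3, NFKBIA, NFKBIZ and TNIP2 below are members of it. ZC3H12A and ZFP36 are not in that list and are named for the size of their change. ZC3H12A, which encodes the RNase regnase-1, stood at 10.7, 11.5 and 8.22 CPM at pH 7.4 and 41.7, 36 and 35.7 CPM at pH 6.0 (1.89 ± 0.12). ZFP36, which encodes tristetraprolin, a protein that binds AU-rich mRNAs and speeds their decay, stood at 51.5, 44.4 and 42.6 CPM at pH 7.4 and 187.4, 144.2 and 164.6 CPM at pH 6.0 (1.84 ± 0.11). TNFAIP3, the deubiquitinase A20 that ends NF-kB signalling, stood at 67.3, 65.6 and 82 CPM at pH 7.4 and 191.1, 177.9 and 178.6 CPM at pH 6.0 (1.35 ± 0.09). The inhibitor NFKBIA rose by 0.84 ± 0.10 and the related NFKBIZ by 0.66 ± 0.11, while TNIP2, a partner of A20, fell (-0.58 ± 0.10). Of 17 cytokine genes 4 were higher and 2 lower, together 35.3% against 18.8% of all genes tested. Without 1 library these counts changed: 2 were higher without library 3 at pH 7.4, and 1 was lower without library 1 at pH 7.4 or library 3 at pH 6.0. LIF, a cytokine of the interleukin 6 family, stood at 25.9, 23.4 and 20.3 CPM at pH 7.4 and 60.7, 49.5 and 56.3 CPM at pH 6.0 (1.25 ± 0.11), and the chemokine gene CCL20 rose by 0.60 ± 0.13. IL18, which intestinal epithelium makes at rest, fell (-0.48 ± 0.10), and CXCL3 fell (-1.04 ± 0.30) but was not called without library 1 at pH 7.4 or library 3 at pH 6.0 (adjusted p = 0.0625 to 0.154). Interferon-stimulated genes leaned lower, with 12 of 35 lower and 4 higher and a median of -0.12. IFIT2 (-0.61 ± 0.09), IFIT1 (-0.37 ± 0.07) and TRIM21 (-0.61 ± 0.09) fell, and DDX60 rose (0.49 ± 0.09).

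Genes of growth control and morphogen signalling were among the largest decreases. MYC (ENSG00000136997), the factor that drives ribosome production and proliferation, fell, and stood at 193.8, 185.9 and 200.7 CPM at pH 7.4 and 71.9, 50.9 and 58.1 CPM at pH 6.0 (-1.68 ± 0.10, adjusted p = 4.36e-11). RASSF10, a member of the RAS-association domain family, stood at 49.1, 42.1 and 37.9 CPM at pH 7.4 and 10.6, 12.2 and 11.3 CPM at pH 6.0 (-1.93 ± 0.12). FOXQ1, a forkhead factor expressed in colon carcinoma, stood at 43.2, 47.5 and 43.6 CPM at pH 7.4 and 15.2, 11.4 and 16.5 CPM at pH 6.0 (-1.63 ± 0.11). In all 3 the groups were far apart. Of the 12 genes of the MYC network 6 were lower and 2 higher. The MYC antagonists MXD1 (0.85 ± 0.08) and MXI1 (0.64 ± 0.10) were those that rose, and another antagonist, MXD4, fell (-0.73 ± 0.09). The count of lower members was 3 without library 1 at pH 7.4, without library 2 at pH 6.0 and without library 3 at pH 6.0, and MYC itself was called in each. KLF5 and KLF4, zinc finger factors of crypt and surface cells, fell (-0.62 ± 0.08 and -0.47 ± 0.09). KLF9 rose (0.68 ± 0.10). KLF10 rose too (0.31 ± 0.09), but was not called without library 2 or 3 at pH 7.4 or library 3 at pH 6.0 (adjusted p = 0.0534 to 0.124). KLF11 rose (0.25 ± 0.07) and was not called without library 1 or 2 at pH 7.4 or library 1 or 2 at pH 6.0 (adjusted p = 0.0512 to 0.0957). These are the 3 higher and 2 lower of the 12 KLF genes tested, whose median was -0.09. They make up 41.7% of the list, against 18.8% of all genes tested.

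Genes downstream of BMP and TGF-beta were lower in 9 of 17 cases and higher in 1, and 9 were lower whichever library of 3 h was left out. The ID genes encode inhibitors of basic helix-loop-helix factors and are direct BMP targets. ID1 stood at 38, 37.7 and 39.9 CPM at pH 7.4 and 13.5, 8.35 and 13.3 CPM at pH 6.0 (-1.71 ± 0.18), ID3 at 44.5, 47.6 and 42 CPM at pH 7.4 and 21.6, 16.7 and 18 CPM at pH 6.0 (-1.25 ± 0.12) and ID2 at 34.9, 35.3 and 32.1 CPM at pH 7.4 and 19.5, 16 and 19.2 CPM at pH 6.0 (-0.90 ± 0.11). SMAD7, the inhibitory SMAD that the pathway itself induces, stood at 18.2, 23.7 and 20.1 CPM at pH 7.4 and 6.66, 6.66 and 6.45 CPM at pH 6.0 (-1.65 ± 0.13). No library of one pH overlapped the other for these genes. SKIL, a corepressor of SMADs and itself a TGF-beta target, was the member that rose (0.57 ± 0.13). The median over the list was -0.47.

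Wnt feedback genes were lower in 6 of 16 cases and higher in 2. AXIN2, a scaffold of the complex that destroys beta-catenin and a standard readout of the pathway, stood at 51.7, 59.3 and 52.2 CPM at pH 7.4 and 24.5, 23.7 and 27.5 CPM at pH 6.0 (-1.11 ± 0.10). DKK1, a secreted inhibitor, stood at 14.1, 14.3 and 14.9 CPM at pH 7.4 and 6.98, 4.35 and 4.95 CPM at pH 6.0 (-1.39 ± 0.15). SP5 (-1.37 ± 0.27) and FRAT1 and FRAT2, which bind the kinase GSK3 (-1.44 ± 0.21 and -0.86 ± 0.10), fell too. RNF43, the ligase that removes Wnt receptors and another target of the pathway, went the other way, and stood at 163.2, 192.2 and 182.4 CPM at pH 7.4 and 263.3, 283.8 and 267.4 CPM at pH 6.0 (0.60 ± 0.08). TCF7L2, a factor that binds beta-catenin, was also called higher (0.31 ± 0.09), but not without library 1 or 3 at pH 7.4 or library 3 at pH 6.0 (adjusted p = 0.0817 to 0.174). Among YAP and TEAD genes AMOTL2 (-1.06 ± 0.08) and AJUBA (-0.68 ± 0.07) fell. YAP1 itself rose by 0.31 ± 0.08, not called without library 1 at pH 7.4 (adjusted p = 0.0506). TEAD1 rose by 0.44 ± 0.12, not called without library 1 or 3 at pH 7.4 or library 2 or 3 at pH 6.0 (adjusted p = 0.0601 to 0.0931). The remaining 11 of the 15 genes tested were not called, so that 26.7% were, against 18.8% of all genes tested. SGK1, the serum- and glucocorticoid-induced kinase, fell, and stood at 16.3, 16 and 14.4 CPM at pH 7.4 and 6, 4.84 and 4.95 CPM at pH 6.0 (-1.56 ± 0.14), as did the insulin receptor substrate gene IRS2 (-0.74 ± 0.10) and CITED2 (-0.98 ± 0.12).

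Transcription factors of the intestinal lineage moved in both directions, 5 of 17 higher and 4 lower. ELF3, an ETS factor of differentiating epithelium, stood at 100.1, 76.7 and 79.2 CPM at pH 7.4 and 163.0, 161.1 and 165.6 CPM at pH 6.0 (0.93 ± 0.09). CDX2, the factor that sets intestinal identity, stood at 179.5, 153.6 and 180.0 CPM at pH 7.4 and 279.2, 300.1 and 284.4 CPM at pH 6.0 (0.75 ± 0.09), and PPARG at 96, 92.2 and 101.8 CPM at pH 7.4 and 163.3, 176.1 and 182.4 CPM at pH 6.0 (0.85 ± 0.08). HNF4A rose by 0.51 ± 0.10. GATA6 fell, and stood at 72, 69.4 and 73.7 CPM at pH 7.4 and 43.4, 43.8 and 43.8 CPM at pH 6.0 (-0.72 ± 0.08). Of the named factors, CDX2, ELF3, PPARG, GATA6 and FOXQ1 kept their calls without any 1 library of 3 h.

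**Figure D3:**
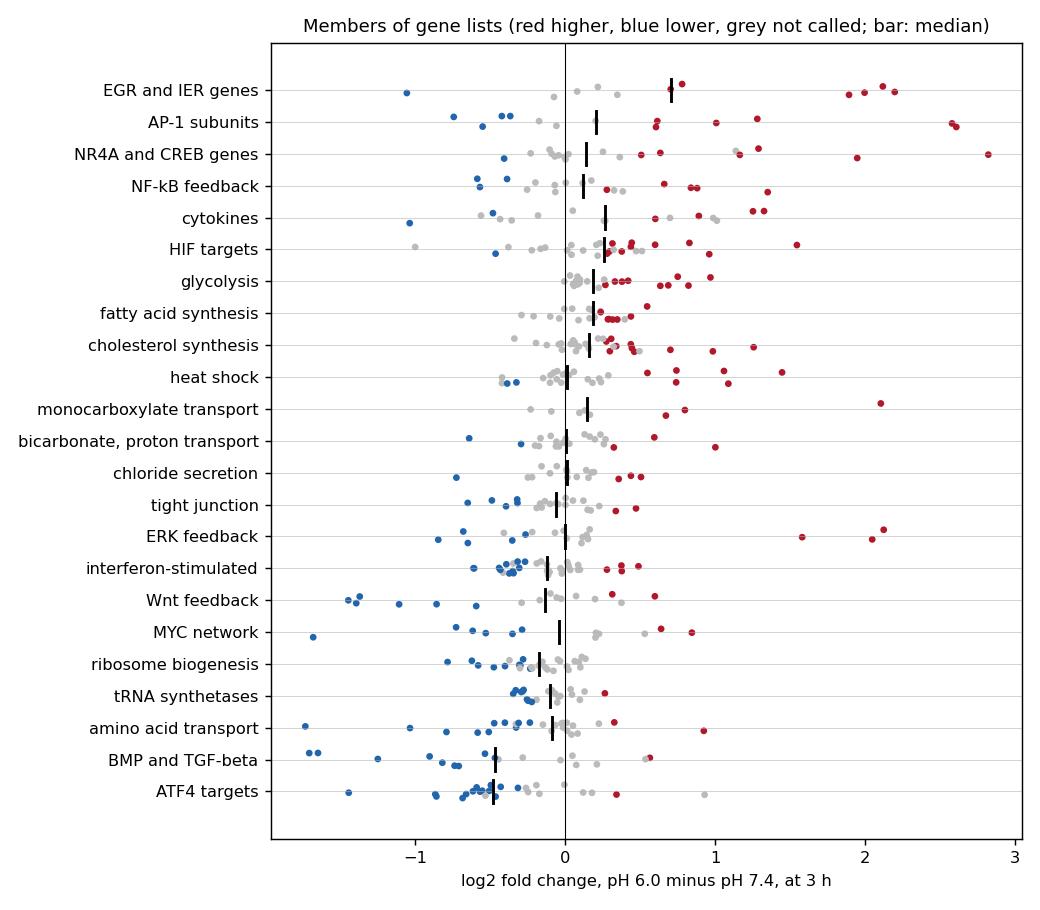
Log2 fold change at 3 h (pH 6.0 minus pH 7.4) of each tested member (points, spread vertically to be seen) of 23 gene lists, in red where called higher, blue where called lower and grey otherwise; black bars are list medians. The medians of the ATF4 targets and of the BMP and TGF-beta genes lie near -0.5, that of the EGR and IER genes at 0.70, and those of most other lists near 0.

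Of all lists the amino acid response had the most lower members. It is driven by ATF4, a factor translated when the kinase GCN2 or PERK phosphorylates eIF2 alpha. Of 24 ATF4 targets 14 were lower and 1, ALDH18A1 (0.34 ± 0.09), was higher, with a median of -0.48, and 13 to 15 were lower whichever library was left out. CHAC1, which degrades glutathione, stood at 33.4, 28.1 and 33.6 CPM at pH 7.4 and 14.9, 7.93 and 11.8 CPM at pH 6.0 (-1.44 ± 0.15). CEBPB, a partner of ATF4, stood at 124.3, 114.8 and 110.9 CPM at pH 7.4 and 69.9, 53.7 and 69.4 CPM at pH 6.0 (-0.86 ± 0.09). SESN2, a leucine sensor that restrains mTORC1, stood at 92.8, 80.8 and 99.9 CPM at pH 7.4 and 51.1, 43.1 and 55.7 CPM at pH 6.0 (-0.86 ± 0.10). PSAT1, of serine synthesis, stood at 148.1, 138.9 and 128.0 CPM at pH 7.4 and 94.3, 79.9 and 84.3 CPM at pH 6.0 (-0.68 ± 0.08). The groups did not overlap for any of the 4. ASNS, asparagine synthetase (-0.55 ± 0.08), DDIT3, the pro-apoptotic factor CHOP (-0.66 ± 0.12), and ATF4 itself (-0.61 ± 0.08) fell by less.

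ASNS and CHAC1 are known for amino acid response elements bound by ATF4 and its partners, and their RefSeq promoters (GRCh38.p14) are shown with the match to TGATGNAA in capitals. ASNS lies at chr7:97872409-97872658 on the minus strand and CHAC1 at chr15:40953221-40953470 on the plus strand.
ASNS: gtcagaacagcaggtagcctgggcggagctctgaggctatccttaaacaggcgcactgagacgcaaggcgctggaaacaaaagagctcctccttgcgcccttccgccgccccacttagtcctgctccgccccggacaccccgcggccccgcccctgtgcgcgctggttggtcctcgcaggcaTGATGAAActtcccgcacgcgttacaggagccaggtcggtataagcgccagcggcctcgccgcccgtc
CHAC1: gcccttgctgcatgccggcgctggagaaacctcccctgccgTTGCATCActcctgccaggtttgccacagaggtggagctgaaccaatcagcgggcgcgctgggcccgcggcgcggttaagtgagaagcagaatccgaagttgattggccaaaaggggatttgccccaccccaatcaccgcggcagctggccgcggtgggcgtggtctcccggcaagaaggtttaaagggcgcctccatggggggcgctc
The match starts 68 bases before the start of ASNS, and lies on the opposite strand 209 bases before the start of CHAC1. Over all genes the letters were in 1.40% of the promoters of lower genes, 1.22% of those of higher genes and 1.52% of all tested, and in 3.19% of the whole table.

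Amino acid carriers were lower in 10 of 25 cases, while SLC6A6 (0.33 ± 0.09) and SLC6A19 (0.93 ± 0.28) were higher, SLC6A6 not without library 1 or 3 at pH 7.4 or library 2 at pH 6.0 (adjusted p = 0.073 to 0.0957) and SLC6A19 not without library 1 at pH 7.4 or library 1 or 3 at pH 6.0 (adjusted p = 0.0644 to 0.147). SLC38A2 (ENSG00000134294), the carrier of small neutral amino acids that cells induce on amino acid withdrawal, stood at 629.9, 696.4 and 637.8 CPM at pH 7.4 and 196.1, 189.6 and 205.8 CPM at pH 6.0 (-1.73 ± 0.08, adjusted p = 1.30e-12). SLC6A9, a glycine carrier, stood at 37.1, 36.3 and 34.9 CPM at pH 7.4 and 18.1, 16.4 and 18.4 CPM at pH 6.0 (-1.03 ± 0.12). SLC3A2 and SLC7A5, the chains of the large neutral amino acid exchanger LAT1, stood at 664.7, 559.5 and 610.9 CPM at pH 7.4 and 389.8, 323.7 and 347.4 CPM at pH 6.0 (-0.79 ± 0.09) and at 607.7, 645.5 and 738.2 CPM at pH 7.4 and 457.1, 425.5 and 447.2 CPM at pH 6.0 (-0.58 ± 0.09). All 4 were lower in each acid library than in any neutral one. The list count of 10 lower carriers was 7 without library 3 at either pH, 8 without library 1 or 2 at pH 7.4 and 9 without library 1 or 2 at pH 6.0. Of 20 cytosolic tRNA synthetase genes, several of which are ATF4 targets, 8 were lower and 1, LARS1 (0.27 ± 0.08), was higher, but not without library 1 or 2 at pH 7.4 or library 2 or 3 at pH 6.0 (adjusted p = 0.0644 to 0.198). The decreases were small, as for CARS1 (-0.35 ± 0.07) and TARS1 (-0.29 ± 0.07). This count was 4 without library 1 at pH 7.4, 4 without library 3 at pH 7.4 and 3 without library 2 or without library 3 at pH 6.0.

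Part of the genes of glucose use were higher. Among 22 glycolysis genes 9 were higher and none lower by edgeR, by DESeq2 or at an unadjusted p under 0.05, with a median of 0.19, and 7 to 9 were higher whichever library was left out. The glucose carrier SLC2A1 stood at 62.8, 58.3 and 65.6 CPM at pH 7.4 and 107.7, 97.4 and 108.9 CPM at pH 6.0 (0.75 ± 0.08). Hexokinase 2 (HK2) stood at 149.4, 152.1 and 168.7 CPM at pH 7.4 and 246.6, 304.0 and 281.0 CPM at pH 6.0 (0.82 ± 0.09). PFKFB3, which makes the activator of phosphofructokinase, stood at 56.9, 58.4 and 60.2 CPM at pH 7.4 and 88.5, 92.4 and 101.9 CPM at pH 6.0 (0.69 ± 0.08). The carrier SLC2A3 rose by 0.64 ± 0.10. Each acid library was above every neutral one in all 4. Other targets of the hypoxia-inducible factors were higher in 10 of 26 cases and lower in 1 (2 without any 1 library at pH 7.4), with a median of 0.26. The higher count was 12 without library 1, 8 without library 2 and 7 without library 3 at pH 6.0, and 8 without library 1 at pH 7.4. EGLN3, a prolyl hydroxylase that marks HIF for destruction, stood at 53.4, 34.9 and 49.4 CPM at pH 7.4 and 83.9, 91.3 and 93.1 CPM at pH 6.0 (0.96 ± 0.12). The histone demethylase KDM3A stood at 85.3, 77.9 and 69.3 CPM at pH 7.4 and 122.0, 154.5 and 137.3 CPM at pH 6.0 (0.83 ± 0.10) and PPFIA4 at 3.58, 5.33 and 3.58 CPM at pH 7.4 and 9.82, 14 and 12.8 CPM at pH 6.0 (1.55 ± 0.20). STC2, also an ATF4 target, was the member that fell (-0.46 ± 0.08). PDK1, a kinase that keeps pyruvate out of the mitochondrion, rose by 0.60 ± 0.11.

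Part of the sterol and fatty acid synthesis genes were higher. Of 30 cholesterol genes 10 were higher and none lower by edgeR or DESeq2 (2 were lower at an unadjusted p under 0.05), with a median of 0.16. INSIG1, the sterol sensor, stood at 128.6, 156.7 and 130.9 CPM at pH 7.4 and 274.4, 281.9 and 267.7 CPM at pH 6.0 (0.99 ± 0.09). HMGCS1, an early enzyme of the pathway, stood at 145.3, 163.9 and 144.7 CPM at pH 7.4 and 231.9, 263.6 and 243.3 CPM at pH 6.0 (0.70 ± 0.08). FDPS, farnesyl diphosphate synthase, stood at 16.6, 21.1 and 19.6 CPM at pH 7.4 and 39, 51.8 and 46.1 CPM at pH 6.0 (1.26 ± 0.13). These 3 were apart in all libraries and called in every fit with 1 library left out. The list count was 5 without library 2 at pH 6.0, 6 without library 3 at pH 6.0 and 6 without library 1 at pH 7.4, and 1 was lower without library 1 at pH 6.0 or library 2 at pH 7.4. Among 20 fatty acid genes 7 were higher and none lower, by either tool or at an unadjusted p under 0.05. The higher ones held SCD, the desaturase (0.55 ± 0.11), and ACLY, which makes acetyl-CoA from citrate (0.35 ± 0.07). That count was 3 without any of the same 3 libraries, and 1 was lower without library 1 at pH 6.0.

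The lists tied to the handling of protons also hold carriers of other cargo, such as SLC26A2 and SLC16A9. Of the exchangers and bicarbonate carriers 23.8% were called, against 18.8% of all genes tested. The share was 37.5% of 8 monocarboxylate carriers, 28.6% of 7 carbonic anhydrases and 11.8% of 17 V-ATPase subunits, and 1 of 5 proton sensors was called. Of 17 proton-sensing receptors and channels 5 were expressed enough to be tested, and none of those rose by edgeR or DESeq2, with 1 higher at an unadjusted p under 0.05. PACC1, the proton-activated chloride channel, was read at 4.21, 3.44 and 2.82 CPM at pH 7.4 and 2.35, 2.1 and 1.82 CPM at pH 6.0 (-0.75 ± 0.25) and was not called without library 1 or 2 at pH 7.4 or library 2 or 3 at pH 6.0 (adjusted p = 0.0546 to 0.195). ASIC1 (0.30 ± 0.13, adjusted p = 0.102), KCNK5 (0.01 ± 0.09) and TRPV1 (0.25 ± 0.42) were not called. Among 21 exchangers and bicarbonate carriers 3 were higher and 2 lower, with a median of 0.00, and 5 were higher without library 1 at pH 6.0 or library 2 at pH 7.4. The clearest was SLC26A2, a sulfate carrier that also exchanges chloride and oxalate, at 207.8, 337.7 and 270.8 CPM at pH 7.4 and 464.3, 576.4 and 594.0 CPM at pH 6.0 (1.00 ± 0.16). SLC4A7, which brings in bicarbonate with sodium, stood at 16.4, 18 and 12.6 CPM at pH 7.4 and 21.1, 26.4 and 24 CPM at pH 6.0 (0.60 ± 0.13). The brush border exchanger SLC9A3 was read at 41.8, 44.6 and 23.8 CPM at pH 7.4 and 28.5, 20.2 and 22.1 CPM at pH 6.0 (-0.64 ± 0.20), with library 3 at pH 7.4 inside the acid range, and was not called without library 1 or 2 at pH 7.4 or library 2 or 3 at pH 6.0 (adjusted p = 0.128 to 0.178). SLC9A7 (0.33 ± 0.11) and the anion exchanger SLC4A2 (-0.29 ± 0.08) were called, SLC9A7 not without library 1 or 3 at pH 7.4 or library 2 or 3 at pH 6.0 (adjusted p = 0.0701 to 0.219) and SLC4A2 not without library 1 at pH 7.4 or library 3 at pH 6.0 (adjusted p = 0.0797 to 0.109). The other 16 members were not called, SLC26A3 (-0.06 ± 0.20) and SLC26A6 (-0.16 ± 0.10) among them.

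Some of the monocarboxylate carriers move lactate and protons together. SLC16A3 (MCT4), which exports lactate from glycolytic cells, stood at 45.2, 37.2 and 47.4 CPM at pH 7.4 and 70.5, 60.3 and 75.9 CPM at pH 6.0 (0.67 ± 0.10). SLC16A9, a carrier of carnitine and creatine, stood at 7, 6.98 and 6.69 CPM at pH 7.4 and 12.9, 11.9 and 11.1 CPM at pH 6.0 (0.80 ± 0.13) and SLC16A14 at 1.3, 1.2 and 1.76 CPM at pH 7.4 and 5.35, 6.17 and 6.7 CPM at pH 6.0 (2.11 ± 0.30). These 3 of 8 tested members rose and kept their calls without any 1 library. SLC16A1 (MCT1) was at 0.13 ± 0.08 (adjusted p = 0.23) and their chaperone BSG at -0.09 ± 0.09 (adjusted p = 0.535). Of 7 carbonic anhydrases, which interconvert carbon dioxide and bicarbonate, CA12, a surface enzyme, rose, and stood at 302.0, 328.3 and 311.5 CPM at pH 7.4 and 389.1, 420.1 and 410.7 CPM at pH 6.0 (0.37 ± 0.07). CA7 was close to undetected, at 0.433, 0.648 and 0.235 CPM at pH 7.4 and 0.764, 1.68 and 1.56 CPM at pH 6.0 (1.55 ± 0.48), and was not called without library 1 or 3 at pH 7.4 or library 2 or 3 at pH 6.0 (adjusted p = 0.0877 to 0.123). CA9 was at -0.16 ± 0.12 (adjusted p = 0.366) and the cytosolic CA2 at 0.14 ± 0.13 (adjusted p = 0.48). Of 17 tested V-ATPase subunits, which pump protons into organelles, ATP6V0A2 (-0.33 ± 0.08) and ATP6V0B (-0.33 ± 0.11) were lower and none was higher, by edgeR, by DESeq2 or at an unadjusted p under 0.05. ATP6V0A2 was not called without library 1 at pH 7.4 (adjusted p = 0.0741) and ATP6V0B not without library 1 or 3 at pH 7.4 or library 2 or 3 at pH 6.0 (adjusted p = 0.0751 to 0.255).

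T84 cells are a standard model of chloride secretion. Of 17 tested genes of that pathway 3 were higher and 1 lower, 23.5% against 18.8% of all genes tested, with a median of 0.015. CFTR, the apical chloride channel, stood at 306.4, 358.6 and 285.4 CPM at pH 7.4 and 394.5, 518.4 and 437.7 CPM at pH 6.0 (0.51 ± 0.10), SLC12A2, the basolateral cotransporter that loads chloride, at 1044, 928.0 and 1031 CPM at pH 7.4 and 1154, 1619 and 1299.8 CPM at pH 6.0 (0.44 ± 0.10) and ATP1B1, a subunit of the sodium pump, at 245.7, 239.5 and 260.5 CPM at pH 7.4 and 323.2, 306.7 and 325.6 CPM at pH 6.0 (0.36 ± 0.07). KCNE3, the partner of the basolateral potassium channel, fell, and stood at 17.6, 19.6 and 15.6 CPM at pH 7.4 and 10.4, 11.1 and 10.6 CPM at pH 6.0 (-0.72 ± 0.12). The groups were apart for each of the 4, and the other 13 genes of the list were not called, though 2 in all were lower without library 1 at pH 6.0 or library 3 at pH 7.4. Of 21 tight junction and polarity genes 2 were higher and 5 lower, 33.3% against 18.8% of all genes tested. The lower count was 3 without library 1 at pH 7.4, and the higher count was 1 without library 2 at pH 6.0. CLDN4, a claudin that tightens the paracellular path, rose (0.47 ± 0.09), while CLDN1 (-0.39 ± 0.08) and the polarity gene PARD6B (-0.65 ± 0.11) fell. The cell surface mucin gene MUC4 rose by 0.72 ± 0.15, but was not called with a length term in each library (adjusted p = 0.134).

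Stress genes outside the amino acid response changed in part. The inducible chaperone HSPA1B stood at 118.0, 128.3 and 123.8 CPM at pH 7.4 and 291.1, 401.2 and 317.1 CPM at pH 6.0 (1.45 ± 0.10), its co-chaperone DNAJB1 at 224.0, 239.9 and 252.0 CPM at pH 7.4 and 362.7, 434.2 and 399.6 CPM at pH 6.0 (0.74 ± 0.09) and the mitochondrial co-chaperonin HSPE1 at 7.36, 8.97 and 6.22 CPM at pH 7.4 and 14.8, 16.8 and 15.6 CPM at pH 6.0 (1.06 ± 0.13). All rose with no overlap, yet the median of the 26 heat shock genes was 0.02, with 6 higher and 2 lower. The members called lower were HSF1, the heat shock factor (-0.39 ± 0.08), and DNAJB2 (-0.32 ± 0.09), the latter not called without library 3 at pH 7.4 or library 2 at pH 6.0 (adjusted p = 0.0709 to 0.102). In the unfolded protein response 2 of 20 genes were higher, ATF6 (0.46 ± 0.08) and SEL1L (0.39 ± 0.09), and 4 lower, among them XBP1 (-0.44 ± 0.07); 2 were lower without library 1 or 2 at pH 7.4 or without library 2 or 3 at pH 6.0. Of these 20 genes 30.0% were called, against 18.8% of all genes tested. The oxidative stress factor NFE2L2 fell (-0.57 ± 0.09) with the cystine carrier SLC7A11 (-0.51 ± 0.11). Of the 22 genes of the oxidative stress list 3 were lower, 13.6% against 18.8% of all genes tested, with a median of -0.04. None of the 22 rose by edgeR, by DESeq2 or at an unadjusted p under 0.05. Among metallothioneins, small metal-binding proteins, MT1X rose, and stood at 0.866, 0.449 and 0.822 CPM at pH 7.4 and 8.57, 3.44 and 7.89 CPM at pH 6.0 (3.21 ± 0.32, adjusted p = 5.27e-07), and the other 8 tested were not called. The share called in that list was 11.1%, against 18.8% of all genes tested.

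Growth arrest and survival genes moved in both directions. Of 20 growth arrest genes 3 were higher and 3 lower, 30.0% against 18.8% of all genes tested, with SESN2 among the lower. The counts were 6 higher without library 2 at pH 6.0, and 5 lower without library 1 at pH 6.0. Of 14 genes of the BCL2 family 2 were higher and 1 lower, 21.4% against 18.8% of all genes tested. PMAIP1, which promotes cell death, rose (0.34 ± 0.11) and was not called without library 1 or 2 at pH 7.4 or library 3 at pH 6.0 (adjusted p = 0.104 to 0.214). BID, also proapoptotic, fell (-0.30 ± 0.10) and was not called without library 1, 2 or 3 at pH 7.4 or library 2 or 3 at pH 6.0 (adjusted p = 0.0683 to 0.165). MCL1 is the other higher one. GADD45B, a stress-inducible partner of MAP3K4, stood at 6.93, 6.43 and 5.7 CPM at pH 7.4 and 39.4, 30.7 and 30.9 CPM at pH 6.0 (2.40 ± 0.12), and BTG2, an antiproliferative gene, at 41.3, 34 and 30.9 CPM at pH 7.4 and 85.3, 74.1 and 68 CPM at pH 6.0 (1.09 ± 0.11). MCL1, an antiapoptotic BCL2 relative with a short-lived mRNA, stood at 406.5, 429.7 and 418.7 CPM at pH 7.4 and 728.0, 726.4 and 726.2 CPM at pH 6.0 (0.80 ± 0.07). All 3 were higher in every acid library. Of 29 ribosome biogenesis genes none was higher, by edgeR, by DESeq2 or at an unadjusted p under 0.05, and 9 were lower, by amounts such as -0.78 ± 0.16 for RRS1 and -0.58 ± 0.11 for NOP2, with a median of -0.18. That count was 4 without library 1 or 3 at pH 7.4, 5 without library 2 at pH 6.0 and 4 without library 3 at pH 6.0. ODC1, the first enzyme of polyamine synthesis and a MYC target, fell, and stood at 102.7, 87.8 and 79.4 CPM at pH 7.4 and 62, 52.3 and 50.5 CPM at pH 6.0 (-0.71 ± 0.10). E2F1 fell (-0.76 ± 0.10), and of the other 19 genes tested for the G1/S step CDT1 was lower (-0.28 ± 0.09, not called without library 1 or 3 at pH 7.4 or library 2 or 3 at pH 6.0 (adjusted p = 0.11 to 0.185)) and none was higher by edgeR or DESeq2, with 1 at an unadjusted p under 0.05 and 1 called without library 3 at pH 7.4. The count of 2 lower genes was 6 without library 1 at pH 6.0, 4 without library 2 at pH 7.4 and 1 without any other 1 library. Of 20 G2/M genes 6 were higher and 1 lower, TOP2A (0.37 ± 0.08), CCNA2 (0.45 ± 0.08), CENPF (0.51 ± 0.10) and MKI67 (0.54 ± 0.12) among the higher. The lower one was AURKB (-0.32 ± 0.11), not called without library 1 or 3 at pH 7.4 or library 2 or 3 at pH 6.0 (adjusted p = 0.119 to 0.232).

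Of 16 listed long non-coding RNA genes 6 were higher and 3 lower, with a median of 0.05. The counts were 3 higher without library 3 at pH 6.0 or library 1 at pH 7.4, and 1 lower without library 2 or 3 at pH 6.0 or library 2 at pH 7.4. Of 12 snoRNA host genes 1 was higher and 3 lower, with a median of -0.31. The lower count was 7 without library 1 at pH 6.0, and 0 without library 2 or 3 at pH 6.0 or library 1 at pH 7.4. The lower long non-coding ones include MIR17HG (-0.88 ± 0.28), the host of a miRNA cluster, not called without library 1 or 3 at pH 7.4 or library 2 or 3 at pH 6.0 (adjusted p = 0.061 to 0.182). NEAT1, the RNA scaffold of paraspeckles, stood at 261.1, 343.2 and 247.6 CPM at pH 7.4 and 511.2, 559.2 and 638.5 CPM at pH 6.0 (1.00 ± 0.11). KCNQ1OT1, a long nuclear transcript, stood at 10.4, 21.6 and 14.7 CPM at pH 7.4 and 44.2, 80.8 and 71.3 CPM at pH 6.0 (2.08 ± 0.28) and MIR23AHG, a miRNA host gene, at 6.85, 4.34 and 5.64 CPM at pH 7.4 and 25.5, 22 and 23 CPM at pH 6.0 (2.06 ± 0.15). The 3 were higher in each acid library. Of 12607 protein-coding genes 1135 were higher and 1355 lower, whereas 98 of 837 antisense genes were higher and 17 lower, 55 and 17 of 524 lincRNA genes, and 96 and 20 of 863 pseudogenes. By length, 24.8% of the genes in the longest decile were higher and 4.16% lower, against 4.03% and 12.3% in decile 3, whose median length was 1863 bases. In the shortest decile 138 of the 162 higher genes moved at least 2-fold. The deviation of a library from its group mean also varied with gene length, with a Spearman correlation across genes, which are not independent, of -0.20, 0.13 and 0.05 in libraries 1 to 3 at pH 7.4 and -0.27, 0.28 and -0.01 at pH 6.0. With a length term fitted in each library 1310 genes were higher and 1825 lower. The part of RNA quality or library preparation in these differences was not tested.

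**Figure D4:**
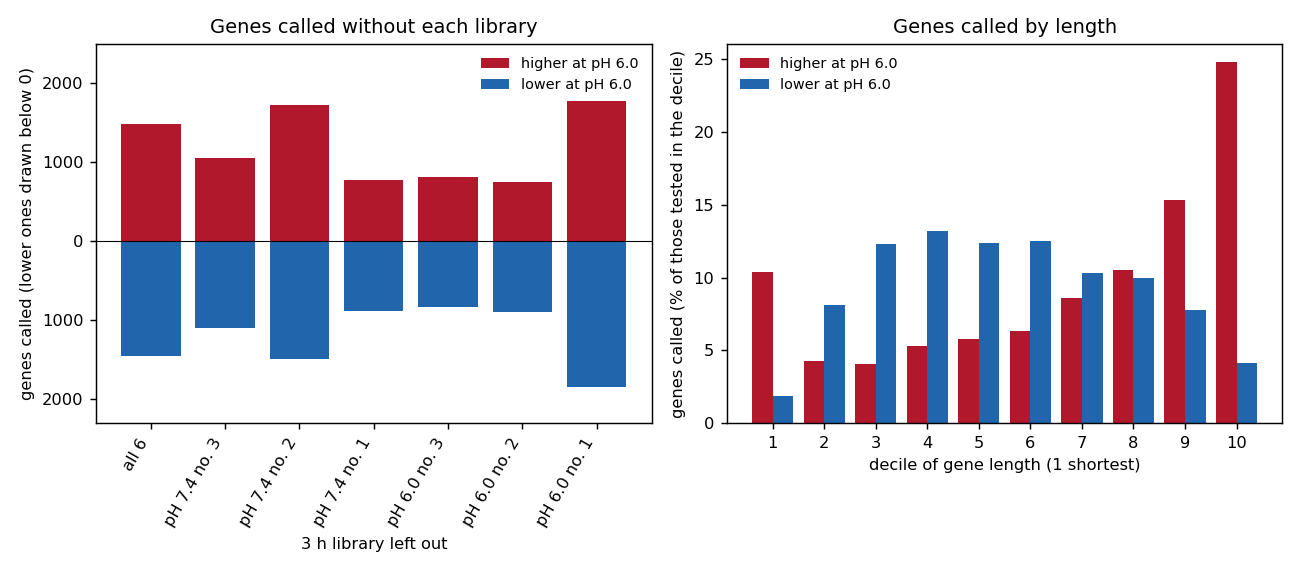
Left, genes called higher (red, above 0) and lower (blue, below 0) at pH 6.0 with all 6 libraries of 3 h and with each left out in turn; right, genes called in each direction as a percentage of the 1563 tested in each decile of gene length. The total lies between 1648 and 3617 when 1 library is left out, and the share of higher genes is 24.8% in the longest decile.

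The 6 h libraries, which are other samples, gave the same measure at a later time. At 6 h 47.0% of genes were called. Of the genes called at 3 h, 1673 were also called at 6 h with the same sign, which is 57.0% of the calls of 3 h and 22.8% of those of 6 h, and 201 were called with the opposite sign. Of the genes at least 2-fold higher at 3 h 201 of 356 were again higher at 6 h, and of those at least 2-fold lower 71 of 92 were again lower. The difference between the effects was tested as an interaction, which was called for 29.4% of all genes and for 1126 of the genes called at 3 h. Among these the effect was larger at 6 h with the same sign for 477, smaller with the same sign for 96 and of opposite sign for 553.

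Several early genes climbed further. The log2 fold change of GADD45B was 4.55 ± 0.12 at 6 h against 2.40 ± 0.12 at 3 h, a difference of 2.16 ± 0.17 (adjusted p = 2.95e-08), and that of NR4A1 was 4.24 ± 0.10, a difference of 1.42 ± 0.13. MYC went on to -3.03 ± 0.10, a difference of -1.35 ± 0.14 (adjusted p = 7.83e-07). HMGCS1 reached 2.43 ± 0.08, a difference of 1.73 ± 0.11 (adjusted p = 1.91e-09). The effect on FOS was smaller at 6 h, at 2.02 ± 0.09, a difference of -0.56 ± 0.12 (adjusted p = 0.00149), and that of EGR1 was 1.62 ± 0.08, a difference of -0.27 ± 0.12 that was not called (adjusted p = 0.0804). For SGK1 the fall was smaller at 6 h, at -0.84 ± 0.13, a difference of 0.72 ± 0.19 (adjusted p = 0.00762 for the difference, as for every p of the comparison between times).

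Other changes of 3 h were smaller at 6 h or had an estimate of the opposite sign, several of them near 0. EGLN3 went to -0.20 ± 0.13 at 6 h, a difference of -1.16 ± 0.17 (adjusted p = 9.30e-05), RNF43 to -0.19 ± 0.08, a difference of -0.79 ± 0.11 (adjusted p = 2.09e-05), and ODC1 to 0.08 ± 0.10, a difference of 0.79 ± 0.14 (adjusted p = 2.75e-04). CDX2 (0.09 ± 0.09) and HNF4A (-0.08 ± 0.10), both higher at 3 h, were near 0 at 6 h, with differences of -0.66 ± 0.13 and -0.60 ± 0.14 (adjusted p = 5.83e-04 and 0.00238). The nucleotidase gene NT5C, lower at 3 h (-0.79 ± 0.15), was at 0.14 ± 0.15 at 6 h, a difference of 0.93 ± 0.21 (adjusted p = 0.00212). The unprocessed pseudogene AL359955.1 rose at 3 h, at 2.83, 3.49 and 2.29 CPM at pH 7.4 and 9.38, 12.8 and 16.5 CPM at pH 6.0 (2.15 ± 0.21) and was at -0.13 ± 0.21 at 6 h, a difference of -2.28 ± 0.30 (adjusted p = 1.73e-05). CDX2, EGLN3, RNF43 and ODC1 were apart between the pH groups in all libraries of 3 h and were called there whichever library was left out. Their values at 6 h come from libraries that the contrast of 3 h did not use, but the test of the difference uses the libraries of both times. Part of the genes of this paragraph were chosen because that test called them and the sign of their estimate turned. For this choice the effect at 6 h did not have to be called. For those genes the adjusted p of the difference adds no support.

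**Figure D5:**
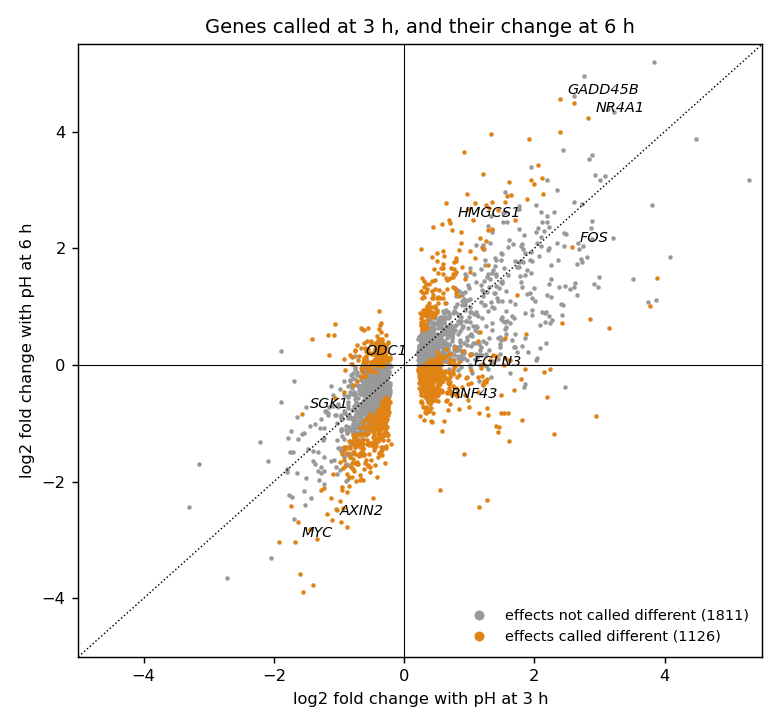
Log2 fold change with pH at 6 h against that at 3 h for the 2937 genes called at 3 h, in orange where the effects were called different (1126 genes) and in grey otherwise; the dotted line marks equal effects. GADD45B, NR4A1, HMGCS1, MYC and AXIN2 lie farther from 0 at 6 h than at 3 h, and RNF43, EGLN3 and ODC1 lie near 0 at 6 h.

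Of the genes named above, AJUBA, AMOTL2, ATP1B1, AXIN2, BSG, CA7, CA9, CARS1, CCNA2, CFTR, CREB1, CREM, CRTC3, DDIT3, DKK1, DNAJB1, EGR3, ELF3, ETV5, FDPS, FRAT2, GATA6, HMGCS1, HSF1, HSPE1, ID2, IER2, IFIT2, JDP2, JUNB, KCNE3, KCNQ1OT1, LARS1, LIF, MAFG, MAFK, MCL1, MIR23AHG, MT1X, MXD1, MXI1, NAB1, NAB2, NFE2L2, NR4A1, NT5C, PDE4D, PDK1, PER1, RNF43, SIK2, SLC16A1, SLC16A3, SLC26A2, SLC2A1, SLC4A2, SLC6A6, SLC6A9, SLC7A11, SLC7A5, SLC9A3, TCF7L2, TNFAIP3, TRPV1 and YAP1 share exon positions with another annotated gene, and HSPA1B, MT1X and FDPS have near-identical copies elsewhere. The use of strand in the counting is not given in the sources used here, so reads of such partners may be split or mixed, and these values are uncertain to that extent.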

How the data were processed

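RNA of T84 cells was measured in 12 libraries, 3 for each of 2 pH values and 2 times, of which the 6 of 3 h carry the comparison. The deposited tables give each gene's read count and its RPKM as the authors computed them, and RPKM served only to recover gene lengths. Reads were handled with CASAVA and STAR on hg19, per the submitters' processing notes. For versions, annotation and strand setting nothing is stated in the sources used here. Gene names and exon overlaps came from the names tables and GENCODE 29, and promoters from RefSeq on GRCh38.p14, another build than the authors', so no coordinate of the authors' files is involved.

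Counts were tested with edgeR 4.0.16 (R 4.3.3), using TMM factors, its default expression filter and robust quasi-likelihood F tests in 1 fit of all 12 libraries in 4 groups. A gene was called when its adjusted p (Benjamini-Hochberg, over the 15630 tested) was under 0.05. The SE is the log2 fold change divided by the square root of F. CPM uses TMM-scaled totals. Pairs of libraries within the 3 h groups differed beyond sampling noise, with 7.12 to 19.5 as chi-square per degree of freedom. The common biological coefficient of variation was 9.29%. On simulated counts for this contrast 80.8% of 99 genes changed 2-fold and 49% of 96 genes changed by 0.5 on the log2 scale were recovered, and 8 of 135 calls were false. The simulation drew genes independently, changed few of them and held no deviation of libraries with gene length. These shares are therefore no error rate for the calls of the real data.

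Alternatives were DESeq2 1.42.0, median-of-ratios factors, total counts, no filter, a stricter filter (3 or more libraries at 5 CPM), a fit of the 6 libraries of 3 h, the replicate number as a term, a test against a fold change of 1.2, a length term (a natural spline in each library, 5 degrees of freedom), and each library of 3 h left out. The comparison and the gene lists were chosen with earlier results of these data known. The text names the 15 higher and 15 lower genes of largest log2 fold change among called genes with a symbol, a mean count of at least 100 and groups that do not overlap, up to 4 called members per list with the smallest p, all members of 7 lists (proton sensors, exchangers and bicarbonate carriers, monocarboxylate carriers, carbonic anhydrases, AP-1, EGR and IER, NR4A and CREB), and genes whose sign turned at 6 h; part of these is not reported here. Other list members were named after their values were seen. They are SPRY1, ETV5, DUSP6, SPRED2, SKIL, TCF7L2, ALDH18A1, ASNS, DDIT3, ATF4, SLC6A6, SLC6A19, LARS1, HSF1, DNAJB2, AURKB, KLF11 and MIR17HG.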

Additional observations from a re-analysis of the deposited data

Results flagged for a closer look

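Of the 191 genes named in the report, 112 had an effect of pH at 6 h that differed from that at 3 h. These were called by edgeR's interaction test (adjusted p under 0.05), 61 with a positive and 51 with a negative difference. The same test called 29.4% of all genes tested and 1126 of the 2937 genes called at 3 h. The named genes were chosen partly by their results at 3 h and partly for a turned sign with a called interaction. Their share therefore says nothing beyond that choice, and the test uses the 3 h libraries again. The values below are the log2 fold change with pH at 6 h minus that at 3 h, with 3 libraries per group. A positive value stands for a larger rise or a smaller fall at 6 h.

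Among AP-1 genes it was 1.87 for FOSB, 1.26 for FOSL1, 1.07 for MAFF, 0.95 for ATF3, -0.64 for FOSL2, -0.56 for FOS and 0.43 for JUNB. For the EGR and IER genes the difference was 1.10 for EGR3, 1.09 for EGR2, 0.79 for IER2, 0.65 for SRF, 0.60 for IER5, 0.49 for NAB2 and -0.34 for NAB1. In the NR4A and CREB genes it came to 2.16 for NR4A3, 1.42 for NR4A1, 1.28 for NR4A2, 1.22 for PCK1, 1.01 for PER1, 1.01 for SIK1, -0.85 for PDE4D, -0.57 for SIK2, -0.47 for CREB1 and -0.45 for CRTC3. The ERK feedback genes showed differences of 1.39 for DUSP2, 1.31 for DUSP5, -1.22 for SPRY1, 0.80 for DUSP1, -0.80 for SPRED2 and -0.53 for ETV5. Among EGF receptor ligands it was 0.53 for HBEGF and -0.42 for TGFA. For the NF-kB feedback genes the difference was 1.13 for NFKBIA, 0.98 for TNFAIP3, 0.65 for NFKBIZ and 0.39 for TNIP2. In the cytokine genes it came to 1.13 for CCL20 and 0.88 for LIF. The interferon-stimulated genes showed differences of -0.72 for IFIT1, -0.56 for TRIM21, -0.48 for DDX60 and -0.44 for IFIT2. Among genes of the MYC network it was -1.35 for MYC, -0.46 for MXD4 and 0.34 for MXD1. For the KLF genes the difference was -0.93 for KLF5, 0.85 for KLF10 and 0.64 for KLF11. In the BMP and TGF-beta genes it came to -0.71 for SKIL. The Wnt feedback genes showed differences of -1.55 for AXIN2, -1.37 for FRAT1, -0.79 for RNF43, -0.66 for FRAT2 and -0.52 for TCF7L2. Among YAP and TEAD genes it was -0.97 for TEAD1, -0.52 for AJUBA and -0.42 for YAP1. For the lineage factors the difference was -1.06 for FOXQ1, -0.66 for CDX2, -0.61 for GATA6 and -0.60 for HNF4A. In the genes of insulin signalling it came to -1.25 for IRS2, 0.72 for SGK1 and -0.69 for CITED2. The ATF4 targets showed differences of 1.29 for DDIT3, -0.73 for PSAT1, 0.62 for ALDH18A1, -0.44 for STC2, 0.43 for ATF4 and -0.37 for ASNS. Among amino acid carriers it was -1.46 for SLC6A9, -1.12 for SLC7A11, -0.69 for SLC38A2, -0.58 for SLC7A5 and 0.45 for SLC3A2. For the tRNA synthetase genes the difference was -0.28 for TARS1 and -0.27 for CARS1. In the HIF targets it came to 1.25 for PPFIA4 and -1.16 for EGLN3. The genes of pyruvate use showed differences of 0.56 for PDK1. Among cholesterol genes it was 1.73 for HMGCS1, 1.68 for INSIG1 and 1.48 for FDPS. For the fatty acid genes the difference was 0.29 for ACLY. In the proton sensors it came to 0.98 for PACC1. The monocarboxylate carriers showed differences of 0.81 for SLC16A3, -0.66 for SLC16A1 and 0.40 for BSG. Among V-ATPase subunits it was 0.68 for ATP6V0B. For the junction genes the difference was -1.19 for CLDN1 and 0.83 for CLDN4. In the heat shock genes it came to 1.57 for DNAJB1, 1.42 for HSPE1, 1.22 for HSPA1B and 0.46 for DNAJB2. The unfolded protein response genes showed differences of -0.47 for SEL1L and 0.32 for XBP1. Among growth arrest genes it was 2.16 for GADD45B, 0.75 for BTG2 and 0.66 for PMAIP1. For the G2/M genes the difference was -0.78 for MKI67, -0.61 for CENPF, 0.46 for AURKB and 0.39 for CCNA2. In the BCL2 relatives it came to 0.49 for BID and 0.43 for MCL1. The other named genes showed differences of -2.28 for AL359955.1, -1.90 for MIR17HG, -1.11 for RASSF10, 0.96 for ZC3H12A, 0.93 for NT5C and 0.79 for ODC1.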

How the results depend on the processing

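The count of 2937 genes changed with pH at 3 h stayed within 1.5 times of that value with DESeq2 (2883), median-of-ratios factors (2935), total counts (2946), no filter (3255), the stricter filter (2647), the length term (3135) and the fit of the 6 libraries of 3 h (2060). Against a fold change of 1.2 it was 700, with 368 higher and 332 lower, and 268 genes were at least 2-fold changed, 207 higher and 61 lower. The stricter filter left 103 genes changed at least 2-fold, 72 higher and 31 lower, since it removes rarely read genes from the test. With 1 library of 3 h left out the counts ran from 1648 to 3617 for all calls, 758 to 1776 for higher, 832 to 1841 for lower, 277 to 524 for changes of at least 2-fold, 205 to 425 for those higher and 72 to 121 for those lower. A group then holds 2 libraries, and the spread is still that of the pooled fit. Calls seen again at 6 h with the same sign numbered 1673, ran from 1109 to 1631 with a library left out, and were 507 against a fold change of 1.2. Genes whose effect differed between the times numbered 4589, ran from 3478 to 5136, and were 2357 against that fold change. The cause of these differences was not tested.

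Replicate numbers are shared between the groups. The deviations of same-numbered libraries from their group means correlated at 0.226, 0.09 and 0.045 for numbers 1, 2 and 3. Whether same-numbered libraries share a culture or a preparation was not tested. With the replicate block in the fit of the 6 libraries of 3 h 3990 genes were called, against 2060 in that fit without the block. Of the 3990 genes 2071 were higher (330 by 2-fold or more) and 1919 lower (88 by 2-fold or more). With it in the fit of 12 libraries the interaction was called for 4774. Libraries 1 and libraries 2 of both groups correlated best with their own number, while library 3 at pH 6.0 correlated better with library 2 at pH 7.4 (0.06) than with library 3 (0.045).

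Of the 168 genes named as called, 31 lost the call without at least 1 library of 3 h, as given with each in the report, and 58 were not called against a fold change of 1.2. Of those 31, 5 were lost with DESeq2, 3 with median-of-ratios factors, 3 with total counts, 4 without the filter, 5 with the stricter filter, 17 in the fit of the 6 libraries of 3 h and 4 with the length term, which also took the call of MUC4. SIK2 turned to -0.18 with the length term. SRF and NR4A3 were called with DESeq2 and not with edgeR (adjusted p = 0.0442 and 0.0411).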
